A study of Mus musculus with 2 samples.

Results

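Kainate receptors are one of the families of ionotropic glutamate receptors, and the mouse genome encodes their subunits in 5 genes, Grik1, Grik2, Grik3, Grik4 and Grik5. The 5 genes were taken by symbol from the 32285 genes of a spatial transcriptomic data set, without use of their measured values, and all 5 had UMIs (unique molecular identifiers, tags that mark each captured RNA molecule) in both sections. The data came from coronal brain sections with the dorsal hippocampus of both sides, placed on a grid of capture spots that each cover a small area of tissue. The section labelled trained was from a mouse taught to avoid a shock zone in a rotating arena (active place avoidance), and the section labelled untrained was from a mouse placed in the same arena with the shock always off. Both mice were males of 3 to 4 months of the genotype ArcCreERT2::eYFPflx on a C57BL/6 background, trained or exposed over 2 days, given a retention test of 10 min without shock 24 h later, and killed 60 min after that test, and sections were 10 µm thick. In this genotype the Arc promoter drives a Cre recombinase that acts only when tamoxifen is given, and both groups carried it. Each group was 1 section of 1 mouse, so training, mouse, section and library cannot be told apart, differences between sections lack a replicate check, and no test was made. The labels were used as deposited. The shares of hippocampal spots with Egr1 and Jun, both immediate early genes, went against the labels: in each section they were close to those the paper gives for the other animal, as given with the Arc results. The share with Arc in the section labelled trained was close to that of the trained animal, and the levels of all 3 genes relative to total UMIs were higher under that label. Whether the labels or the matrices were exchanged relative to the text of the paper was not settled by these values, so every direction between sections holds for the deposited labels alone.

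Kainate receptors assemble as tetramers. Grik1, Grik2 and Grik3 encode GluK1, GluK2 and GluK3, the low-affinity subunits that can form channels on their own, and Grik4 and Grik5 encode GluK4 and GluK5, the high-affinity subunits that form channels only together with one of the former. In the hippocampus these receptors are best known at the mossy fibre synapse, where the axons of dentate granule cells meet CA3 pyramidal cells, and there they act both in the granule cell terminals and in the CA3 cells. They also modulate transmitter release and excitability in interneurons, cortex and thalamus.

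Positions are on GRCm38/mm10 with the GENCODE vM21 annotation. Grik1 (ENSMUSG00000022935) spans chr16:87895900-88290265 with 17 exons in its longest transcript, Grik2 (ENSMUSG00000056073) chr10:49094833-49788766 with 17, Grik4 (ENSMUSG00000032017) chr9:42518135-42944493 with 21 and Grik5 (ENSMUSG00000003378) chr7:25009849-25072346 with 21, all on the minus strand. Grik3 (ENSMUSG00000001985) spans chr4:125490700-125714173 on the plus strand with 16 exons. No gene on the opposite strand overlapped any of the 5 spans. Grik3 and Grik4, whose layers of highest level in the hippocampus differed, are shown by the bases just before their start, from RefSeq on GRCm38.p6. The Grik3 stretch is chr4:125490446-125490695 on the plus strand, and the Grik4 stretch is chr9:42944494-42944621 on the minus strand, cut where an annotated exon begins. Capitals mark the GC box, GGGCGG on either strand, a short element of promoters without a TATA box.

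Grik3: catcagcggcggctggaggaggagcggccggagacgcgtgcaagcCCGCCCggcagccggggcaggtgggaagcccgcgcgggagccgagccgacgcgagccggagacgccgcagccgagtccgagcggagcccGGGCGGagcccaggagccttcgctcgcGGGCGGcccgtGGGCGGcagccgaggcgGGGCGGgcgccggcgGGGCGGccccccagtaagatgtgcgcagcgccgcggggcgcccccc

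Grik4: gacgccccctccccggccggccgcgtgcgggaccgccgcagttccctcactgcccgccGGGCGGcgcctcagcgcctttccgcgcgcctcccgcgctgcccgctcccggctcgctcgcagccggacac

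The RefSeq window of 250 bases was not upstream sequence alone, since in Grik4 it ran into the annotated span of the gene and in Grik2 and Grik5 it overlapped annotated exons, which are not shown. It held 6 GC boxes in Grik3, 1 in Grik4, 2 in Grik5 and 0 in Grik2, and 32.7% of 32851 promoter windows held at least 1. Letters G and C made up 82% of the window of Grik3, 75.2% of Grik5, 69.6% of Grik4 and 62.8% of Grik2, against a median of 52.4% over all windows. The cAMP response element TGACGTCA (held by 1.55% of windows), the AP-1 site TGAGTCA (4.46%) and the EGR core GCGTGGGC (1.37%) were in none of these 4 windows on either strand. Such matches describe the letters only.

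Under the label trained there were 4152 spots (29515831 UMIs) and under the label untrained 3738 spots (59029131 UMIs), with medians of 5950.5 and 13766.5 UMIs per spot. Spots were clustered on other genes than the members and their clusters named from fixed marker genes or, where these did not name a cluster, by the leading gene, which gave 23 regions. The hippocampus comprised 586 and 568 spots. The CA1 pyramidal layer had 102 and 133 of these spots, the CA3 layer (CA2 included) 85 and 118, the granule layer of the dentate gyrus (DG) 136 and 152, and the neuropil between them 257 and 155. Their leading genes included the fixed markers Spink8, Fibcd1 and Wfs1 in CA1, Cabp7, Homer3 and Rgs14 in CA3, and Dsp and Prox1 in DG. The grid barcodes common to both sections numbered 3448, which are positions of the slide design and not shared tissue. Some regions were held unevenly, such as the striatum (210 and 23 spots), Six3-led subcortex (125 and 32) and Slc10a4-led subcortex (164 and 7), and a cluster led by Cartpt (177 spots) was in the section labelled untrained alone. Levels below are UMIs per 1000000 UMIs of the same region (CPM), with 95% intervals that cover counting error only. A spot holds several cells, so fewer cells of a type and less RNA per cell cannot be told apart. UMIs were counted near 3′ ends and carry no length term.

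All 5 subunits together reached 194 CPM (189 to 199) in the section labelled trained and 191 (187 to 194) in the section labelled untrained, with overlapping intervals. Most of it was Grik5, the widely expressed high-affinity subunit, with 3669 UMIs (124 CPM) and 7738 UMIs (131 CPM), or 64.0% and 68.7% of all kainate UMIs. The other 4 members were far lower. Grik2 stood at 23.8 CPM (702 UMIs) and 16.9 CPM (997 UMIs). Grik3 had 19 and 15.8 CPM (561 and 935 UMIs), Grik4 14.3 and 16.7 CPM (423 and 987 UMIs), and Grik1 12.7 and 10.2 CPM (376 and 603 UMIs).

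These counts were thin in most regions. Fewer than 50 UMIs of a gene were counted in 21 of 22 regions for Grik1, 17 for Grik2, 19 for Grik3, 20 for Grik4 and 3 for Grik5 in the section labelled trained. In the section labelled untrained the same held in 19 of 23 regions for Grik1, 14 for Grik2, 15 for Grik3, 17 for Grik4 and 5 for Grik5. All 5 genes together fell short of 50 UMIs in 3 regions labelled trained (among them Slc6a13-led with 14 and Agrp-led with 1) and in 4 labelled untrained (striatum with 46, Agrp-led with 22, Slc6a13-led with 9 and Slc10a4-led with 6). No subunit mix was read in those regions.

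**Figure D1:**
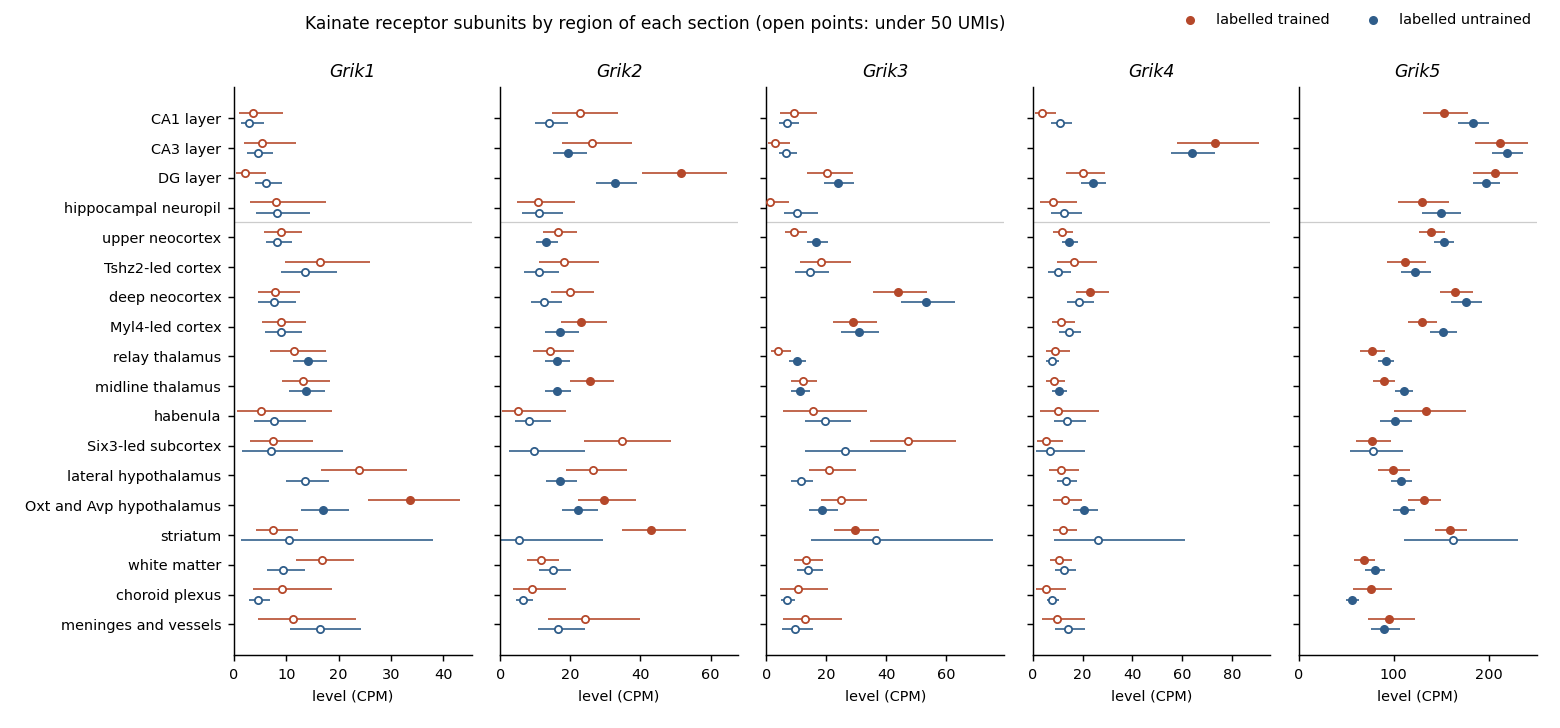
Level of each subunit in CPM (x axes, linear, one scale per gene) in 18 regions (y axis) of both sections, with 95% Poisson intervals as bars and open points where the gene had under 50 UMIs. Grik4 was highest in the CA3 layer (73.1 and 63.8 CPM), Grik2 in the DG layer (51.4 and 32.8), and Grik5 in CA3 and DG.

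In the hippocampus the 5 subunits summed to 253 CPM (239 to 269; 1120 UMIs) and 264 CPM (255 to 274; 3027 UMIs), above the 184 and 173 CPM of the rest of each section. The CA3 layer had the highest sum of the 19 regions compared, 319 CPM (287 to 354) and 314 (295 to 334), and the DG layer followed with 300.3 (273 to 330) and 284 (268 to 301), with overlapping intervals. The CA1 layer had 193 CPM (167 to 220) and 218 (201 to 237), below CA3 and DG in both sections without overlap. The neuropil had 158 and 192 CPM.

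Grik1, the subunit best known from interneurons and sensory ganglia, was close to undetected in the hippocampal layers. It had 4 and 8 UMIs in CA1 (3.7 and 2.9 CPM), 6 and 15 in CA3 (5.4 and 4.6 CPM), and 3 and 24 in DG (2.1 and 6.2 CPM). White matter had 16.8 and 9.3 CPM, so none of these layers stood above it. White matter spots are no floor free of neurons, however. Their summed markers of inhibitory neurons (7 of 7 detected) were 771 and 699 CPM, against 909 and 890 CPM in CA1. In the whole hippocampus Grik1 made up 1.7% and 2.0% of kainate UMIs (19 and 61 UMIs), and the first value was 2.73% with spots thinned to 1000 UMIs, above its interval of 1.02% to 2.64%.

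Grik2, which encodes the main channel-forming subunit of mossy fibre synapses, was highest in the DG layer. It had 51.4 CPM there in the section labelled trained (40.4 to 64.6; 74 UMIs) and 32.8 CPM in the section labelled untrained (27.4 to 39.1; 127 UMIs). CA3 had 26.2 (17.5 to 37.6; 29 UMIs) and 19.5 CPM (15 to 24.8; 64 UMIs), and CA1 22.8 (14.8 to 33.7; 25 UMIs) and 14 (9.9 to 19.2; 38 UMIs). The DG interval lay above those of CA3 and CA1 in both sections, while CA3 and CA1 overlapped. White matter had 11.6 (7.6 to 16.9) and 15 CPM (11 to 20.1). Its interval overlapped that of CA1 in both sections and that of CA3 under the label untrained, where CA1 was below it. Choroid plexus had 9.1 (3.7 to 18.8) and 6.6 CPM (4.6 to 9.3), which CA1 exceeded without overlap only under the label untrained. Of all hippocampal Grik2 UMIs, 54.0% (45.3 to 62.6) and 51.6% (45.2 to 58.0) came from the DG layer, which held 32.6% and 33.8% of the UMIs of all genes.

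Grik3, a subunit with low glutamate sensitivity that is found at presynaptic sites, was also highest in DG, at lower counts. DG had 20.2 CPM (13.5 to 28.9; 29 UMIs) and 23.8 CPM (19.2 to 29.2; 92 UMIs), CA1 had 9.1 (10 UMIs) and 7.0 CPM (19 UMIs), and CA3 had 2.7 CPM from 3 UMIs (0.56 to 7.9) and 6.7 CPM from 22 UMIs (4.2 to 10.1). DG exceeded CA3 without overlap in both sections, and exceeded CA1 without overlap in the section labelled untrained. White matter had 13.3 and 14 CPM of Grik3, so CA1 and CA3 did not stand above it. The DG layer gave 67.4% (51.5 to 80.9) and 61.7% (53.4 to 69.6) of hippocampal Grik3 UMIs.

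Grik4, a high-affinity subunit long known for its expression in CA3, was highest there in both sections. In CA3 it reached 73.1 CPM (58.0 to 90.8; 81 UMIs) and 63.8 CPM (55.5 to 73.1; 210 UMIs). DG had 20.2 (13.5 to 28.9; 29 UMIs) and 24 CPM (19.4 to 29.4; 93 UMIs), and CA1 had 3.7 (1.0 to 9.3; 4 UMIs) and 11 (7.5 to 15.8; 30 UMIs). The order CA3, DG, CA1 held in both sections with no overlap between neighbouring intervals. CA3 gave 67.5% (58.3 to 75.8) and 59.3% (54.0 to 64.5) of hippocampal Grik4 UMIs, against 25.1% and 28.7% of the UMIs of all genes, and CA1 gave 3.3% and 8.5%, against 24.8% and 23.7%.

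Grik5, which combines with any low-affinity subunit, was high in every layer. It had 212 CPM (186 to 241; 235 UMIs) and 219 CPM (204 to 236; 722 UMIs) in CA3, 206 (184 to 231; 297 UMIs) and 197 (183 to 212; 763 UMIs) in DG, and 153 (131 to 178; 168 UMIs) and 183 (168 to 200.1; 498 UMIs) in CA1. CA3 and DG overlapped in both sections, and CA1 lay below CA3 in both. In the neuropil, where dendrites and axons prevail, it had 129 CPM (96 UMIs) and 149.5 CPM (216 UMIs), while the other 4 genes had between 1 and 18 UMIs each there.

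**Figure D2:**
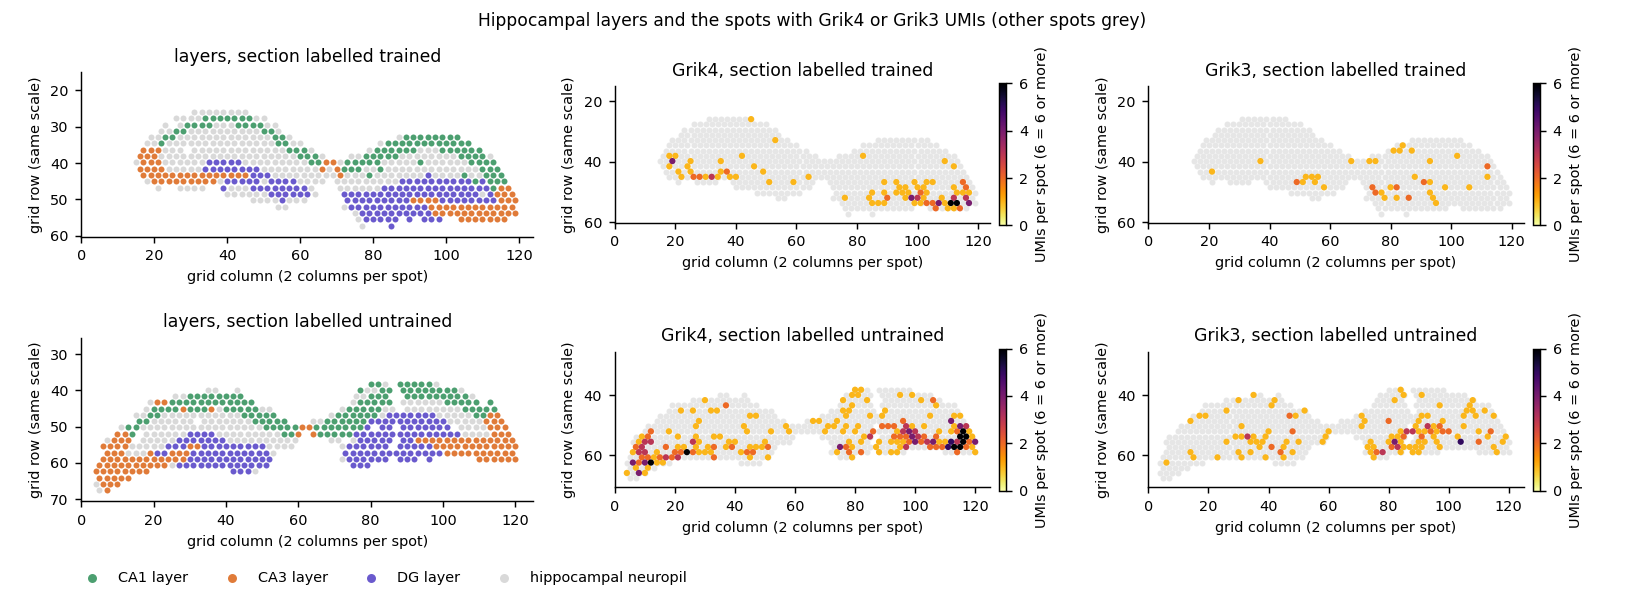
Hippocampal spots of both sections on the capture grid (x axis, grid column, 2 per spot; y axis, grid row drawn to the same scale), coloured by layer (left) and by UMIs per spot of Grik4 (middle) and Grik3 (right), with spots without the gene in grey. Grik4 spots gathered along the CA3 layer on both sides, and Grik3 spots were scattered with most UMIs in the DG layer.

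The mix of subunits differed between layers. Grik4 made up 22.9% (18.6 to 27.6) and 20.3% (17.9 to 22.9) of kainate UMIs in CA3, 6.7% and 8.5% in DG, and 1.9% and 5.1% in CA1. The low-affinity genes Grik1 to Grik3 together gave 24.5% and 22.1% in DG but 10.7% and 9.8% in CA3, and 18.5% and 11% in CA1. In DG this was mainly Grik2, with 17.1% and 11.6%, followed by Grik3 with 6.7% and 8.4%. Grik5 was the largest share in each layer and in the neuropil, with 66.4% and 69.9% in CA3, 68.8% and 69.4% in DG, 79.6% and 84.0% in CA1, and 82.1% and 78.0% in the neuropil. Among the low-affinity genes Grik2 had the most UMIs in each of the 3 layers of both sections. Shares are of UMIs and not of receptor protein.

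**Figure D3:**
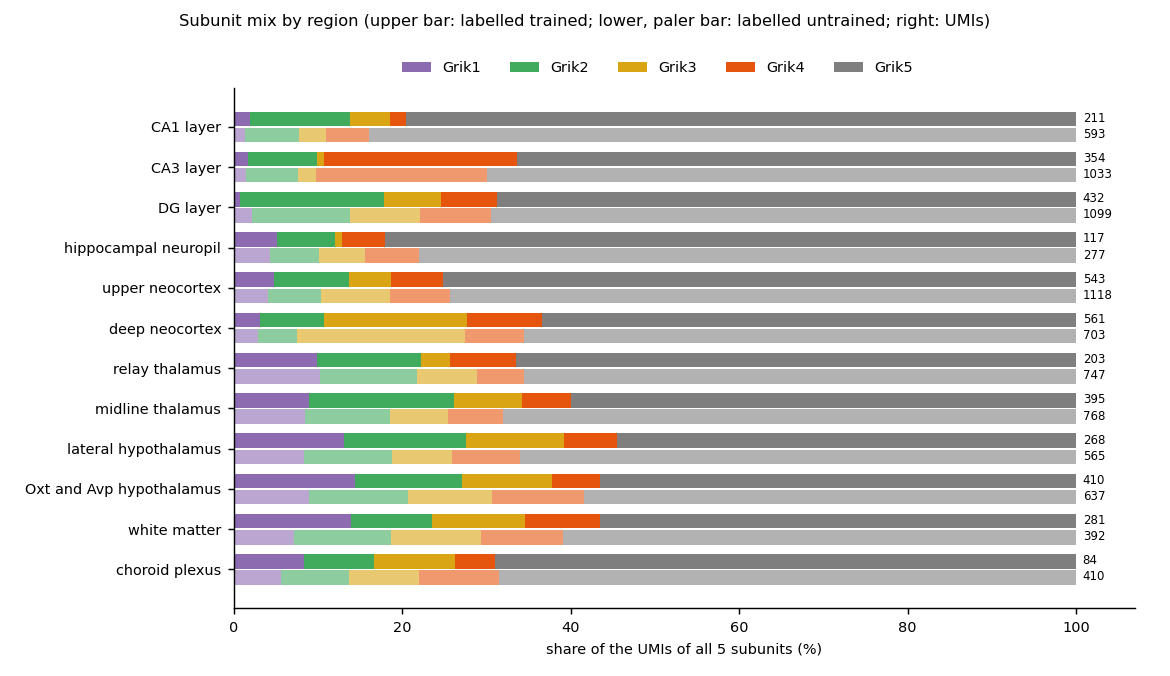
Share of each subunit in the UMIs of all 5 (x axis, percent) in 12 regions (y axis), with the section labelled trained as the upper bar, the section labelled untrained as the lower, paler bar, and the number of kainate UMIs at the right. Grik4 widens in the CA3 layer to 22.9% and 20.3%, Grik3 in deep neocortex to 16.9% and 19.9%, and Grik1 is widest in the Oxt and Avp hypothalamus of the section labelled trained, 14.4%.

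As log2 ratios within a section, Grik4 in CA3 over DG was 1.84 (1.23 to 2.52) in the section labelled trained and 1.40 (1.05 to 1.78) in the section labelled untrained. In CA3 over CA1 the lower ends of the intervals were 2.91 and 1.97, and these ratios are read only as higher in CA3, since the CA1 counts (4 and 30 UMIs) were below the white matter level. Grik3 went the other way in CA3 over DG, with -2.70 (-5.26 to -1.21) and -1.81 (-2.57 to -1.15). Grik2 in CA3 over DG was -0.96 (-1.65 to -0.34) and -0.75 (-1.21 to -0.31). In CA1 over DG, Grik2 had -1.15 (-1.89 to -0.50) and -1.22 (-1.79 to -0.70) and Grik3 -1.10 (-2.34 to -0.06) and -1.74 (-2.56 to -1.04), so both members stood lower in CA1 than in DG in both sections. Grik3 in CA1 and CA3, and Grik2 in CA1 under the label untrained, were below the white matter level, so the ratios that use them are read for their direction alone. Grik5 had 0.04 (-0.21 to 0.29) and 0.15 (0.01 to 0.30) in CA3 over DG and 0.47 (0.18 to 0.76) and 0.26 (0.09 to 0.43) in CA3 over CA1. In CA1 over DG it had -0.43 (-0.71 to -0.15) and -0.11 (-0.27 to 0.06). Grik1 had opposite signs in the sections in CA3 over DG (1.27 and -0.43) and in CA1 over DG, with intervals that included 0.

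Read against all genes, these differences rested on few counts. A gene was compared when it had at least 200 UMIs over both layers in each section, and it was counted when it differed over 2-fold in the same direction in both. Of the 5 members 1, Grik5, met that minimum in all 3 contrasts, and it was counted in 0 of them. Among all genes that met it, 2.91% were higher and 2.62% lower in CA3 than in DG (2442 genes), 2.01% higher and 2.06% lower in CA3 than in CA1 (2088 genes), and 2.95% higher and 2.54% lower in CA1 than in DG (2444 genes). Grik4 was over 2-fold higher in CA3 than in DG and CA1 in both sections but fell short of the minimum in the section labelled trained.

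**Figure D4:**
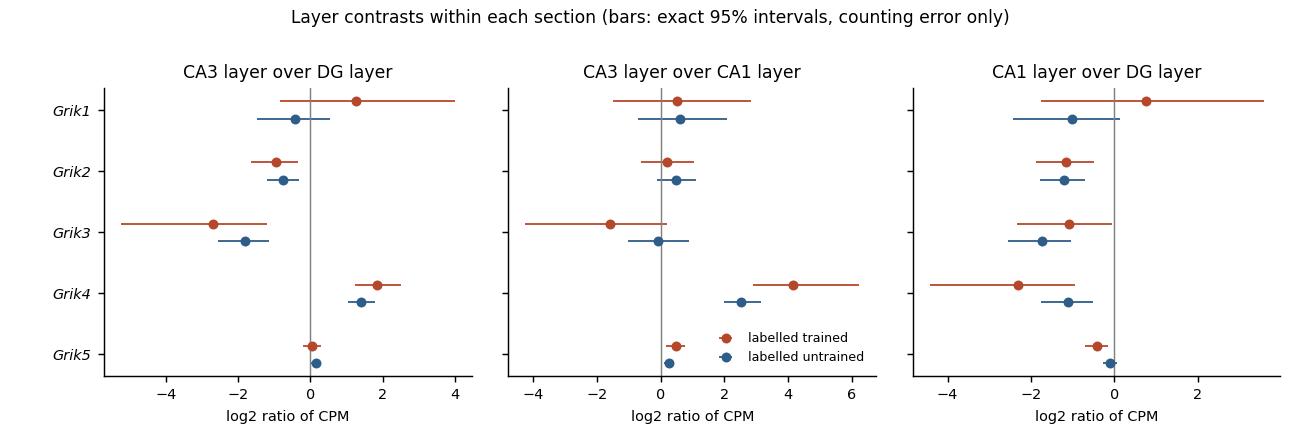
Log2 ratio of CPM between 2 hippocampal layers (x axes) for each subunit (y axis) within each section, with exact 95% intervals for counting error as bars. Grik4 lies right of 0 in CA3 over DG (1.84 and 1.40) and in CA3 over CA1, where its CA1 level was below that of white matter. Grik2 and Grik3 lie left of 0 in CA3 over DG and CA1 over DG, in both sections.

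Spots with at least 1 UMI followed depth, which was 8291 to 11160 UMIs at the median in the layers labelled trained and 16715 to 23949.5 in those labelled untrained. Grik5 was found in 80.0% of CA3 spots labelled trained and 96.6% of those labelled untrained, and after thinning each spot to 1000 UMIs in 17.7% and 18.9%. White matter, which also carried inhibitory neuron markers, gave 7.0% and 8.0% after thinning, and choroid plexus 7.2% and 6.5%. As deposited white matter gave 21% and 39.4%, at medians of 3179.5 and 6285 UMIs. Spots too shallow to thin were left out, 37 and 1 in white matter and 0 and 1 in the hippocampus. Grik4 was found in 48.2% and 64.4% of CA3 spots, 5.95% and 5.27% after thinning, against 1.01% and 1.24% in white matter. In CA1 the thinned share of Grik4 was 0.25% and 1.41%, below white matter in the section labelled trained and near it in the section labelled untrained, and it is not read as expression. Grik2 in DG (39% and 55.3% of spots, 4.84% and 3.10% thinned) stood above white matter (0.98% and 1.54% thinned). Grik3 in CA1 (0.98% and 0.78%) and CA3 (0.27% and 0.65%) was below white matter after thinning. Grik3 in DG (16.9% and 43.4%) reached 1.82% and 2.09% after thinning, above the 1.51% and 1.30% of white matter by a small margin. Grik1 in the 3 layers gave 0.21% to 0.77% after thinning, below the 1.5% and 0.80% of white matter. The most UMIs in 1 hippocampal spot were 13 and 22 for Grik5 and 7 and 11 for Grik4.

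Left and right were compared within each section. Grik4 in CA3 had 76.9 CPM on the left and 71.8 on the right in the section labelled trained, and 63.2 and 64.2 in the section labelled untrained. Its share of kainate UMIs in CA3 was 22.9% on each side and 20.7% and 20.1%. Grik2 in DG had 67.7 CPM left (19 UMIs, 41 spots) and 47.5 right (55 UMIs, 95 spots) in the section labelled trained, and 31.4 and 33.5 in the other. Left and right overlapped for these values of Grik4 and Grik2. Grik3 in DG had 32.1 CPM left (9 UMIs) and 17.3 right (20 UMIs) in the section labelled trained, with overlapping intervals, and 21.2 and 24.9 in the other, and Grik3 in CA1 labelled trained had 0 UMIs on the left and 10 on the right. With the left side alone 16 of 75 recomputed values moved by more than their interval, and with the right side alone 0 of 75. The right side held most hippocampal UMIs, 3205574 against 1213383 under the label trained and 7448435 against 3998200 under the label untrained. Its values thus largely repeat the pooled ones, and these counts are not read as a difference between sides.

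Outside the hippocampus the low-affinity genes shared some of their highest regions. The hypothalamic region led by Oxt and Avp was among the first 7 of the 19 regions compared for each of them in both sections, with 29.5 and 22.3 CPM for Grik2 and 25 and 18.7 CPM for Grik3. This place was not particular to the low-affinity genes, since Grik4 ranked 6 and 4 in that region (13.1 and 20.8 CPM). Among the 19 regions compared Grik1 had its highest level in the Oxt and Avp region, with 33.5 CPM (25.5 to 43.2; 59 UMIs) and 16.9 CPM (12.8 to 21.9; 57 UMIs), and the lateral hypothalamus had 23.8 (35 UMIs) and 13.6 CPM (47 UMIs). Under the label untrained the lateral hypothalamus came after the meninges and vessels (16.5 CPM) and both thalamic regions, and the Cartpt-led cluster held there alone had 18 CPM (69 UMIs). In the Slc10a4-led subcortex labelled trained it had 29.3 CPM (40 UMIs), and the thalamic regions had 11.4 and 14.2 CPM (relay) and 13.2 and 13.7 CPM (midline). The summed markers of astrocytes (Gfap, Aqp4, Slc1a3, Gja1, 4 of 4 detected) in the Oxt and Avp region were 759 and 400.04 CPM and those of inhibitory neurons (7 of 7 detected) 1346 and 682 CPM, both higher in the section labelled trained as Grik1 was. Their part in the result was not tested.

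Grik3 was high in deep neocortex, second to the Six3-led subcortex under the label trained and first under the label untrained, with 44.0 CPM (35.6 to 53.8; 95 UMIs) and 53.4 CPM (44.9 to 63.0; 140 UMIs), and in the neighbouring cortex led by Myl4 with 28.9 and 30.9 CPM (65 and 96 UMIs). Upper neocortex had 9.2 and 16.7 CPM, so the deep layers stood above the upper ones without overlap in both sections. In the Six3-led subcortex of the section labelled trained, which carried Gad1 and Pvalb among its leading genes, Grik3 reached 47.4 CPM (34.5 to 63.4; 45 UMIs), while the section labelled untrained had 26.1 CPM from 11 UMIs. There the low-affinity genes together made up 52.1% of kainate UMIs in the section labelled trained and Grik5 44.8%, with overlapping intervals, while in the section labelled untrained they made up 33.3% and Grik5 61.1%.

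Grik2 and Grik3 were both high in the striatum of the section labelled trained, with 29.5 CPM for Grik3, and in the Six3-led subcortex, with 34.7 CPM for Grik2. Grik2 in that striatum had 43.1 CPM (34.8 to 52.9; 92 UMIs), but the section labelled untrained held 23 striatal spots with 1 Grik2 UMI. Grik4 in deep neocortex had 23.2 CPM (50 UMIs) and 18.7 CPM (49 UMIs), the highest outside the hippocampus among the regions compared under the label trained. Under the label untrained it was behind the Oxt and Avp hypothalamus (20.8 CPM, 70 UMIs), the Cartpt-led cluster (20.1 CPM, 77 UMIs) and the striatum (26.3 CPM, 5 UMIs). Grik5 was high in deep neocortex (165 and 176 CPM), upper neocortex (139 and 153) and striatum (159 and 163, the latter from 31 UMIs with an interval of 111 to 231) and low in relay thalamus (76.8 and 91.5), white matter (68.3 and 79.8) and choroid plexus (75.6 and 56.3). In the Cartpt-led cluster of the section labelled untrained it had 182 CPM (696 UMIs).

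Over the 19 regions with at least 100000 UMIs in both sections, the level ranged from 2.1 to 33.5 and from 2.9 to 16.9 CPM for Grik1, 5.2 to 51.4 and 5.3 to 32.8 for Grik2, 1.3 to 47.4 and 6.7 to 53.4 for Grik3, 3.7 to 73.1 and 7.1 to 63.8 for Grik4, and 68.3 to 212 and 56.3 to 219 for Grik5. Grik4 and Grik5 were at the top in CA3 and Grik2 in DG in both sections. Most neighbours in this order could not be separated. Of 18 neighbouring pairs the intervals overlapped in all 18 for Grik1, Grik2 and Grik3 in both sections and for Grik4 and Grik5 in the section labelled untrained, and in 17 for Grik4 and Grik5 in the section labelled trained. The orders of the sections, as a description over 19 regions that share a library within each section, had a Spearman rho of 0.92 for Grik5, 0.82 for Grik3, 0.73 for Grik1, 0.72 for Grik4 and 0.29 for Grik2.

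Between sections, hippocampal Grik2 had 31.0 CPM (26 to 36.7; 137 UMIs) under the label trained and 21.5 (18.9 to 24.4; 246 UMIs) under the label untrained, a log2 ratio of 0.53 (0.22 to 0.84). The intervals did not overlap, but the rest of the section had nearly the same ratio, 0.51 (0.35 to 0.67; 22.5 and 15.8 CPM). Relative to the rest of the section hippocampal Grik2 was thus at 0.02. That rest held unlike tissue, with Grik2 UMIs of 92 and 1 in striatum, 33 and 4 in Six3-led and 39 and 1 in Slc10a4-led subcortex. The part of this in the value of 0.02 was not tested. Within layers the log2 ratio of Grik2 was 0.65 (0.21 to 1.07) in DG, 0.72 (-0.08 to 1.47) in CA1 and 0.44 (-0.26 to 1.08) in CA3, higher under the label trained in all 3. Summed astrocyte markers were also higher under that label, with 633 and 394 CPM in the hippocampus and 610 and 421 CPM in DG. Those of inhibitory neurons were 920 and 919 CPM in the hippocampus. Their part in the ratio was not tested.

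Hippocampal Grik5 had 181 CPM (169 to 194) and 194 CPM (186 to 202), a log2 ratio of -0.10 (-0.21 to 0.02), and Grik4 27.2 (22.5 to 32.5) and 30.9 CPM (27.8 to 34.3), -0.18 (-0.50 to 0.12). Grik3 had 9.7 and 13 CPM, -0.41 (-0.94 to 0.08), and Grik1 4.3 and 5.3 CPM, -0.28 (-1.14 to 0.45). All 4 were lower under the label trained with overlapping intervals. In CA1 alone Grik4 was at -1.45 (-3.56 to -0.09), from 4 and 30 UMIs that did not stand above white matter. Grik4 in CA3 was at 0.20 and Grik5 in CA3 at -0.05, both within counting error of 0.

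In the rest of the section Grik1 was at 0.32 (0.12 to 0.52; 14.2 and 11.4 CPM), Grik3 at 0.32 (0.16 to 0.48; 20.6 and 16.5 CPM), Grik4 at -0.14 (-0.34 to 0.06) and Grik5 at -0.02 (-0.09 to 0.04; 114 and 116 CPM). The 3 low-affinity genes were thus higher under the label trained there and the 2 high-affinity genes were not. The section labelled trained held more striatum and Six3-led and Slc10a4-led subcortex, where at least 1 of these 3 genes was high, and its astrocyte (618 and 435 CPM) and inhibitory neuron markers (1296 and 821 CPM) were higher in the rest of the section. The part of these in the ratios was not tested. Within the Oxt and Avp hypothalamus, present in both, Grik1 was at 0.99 (0.44 to 1.54).

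**Figure D5:**
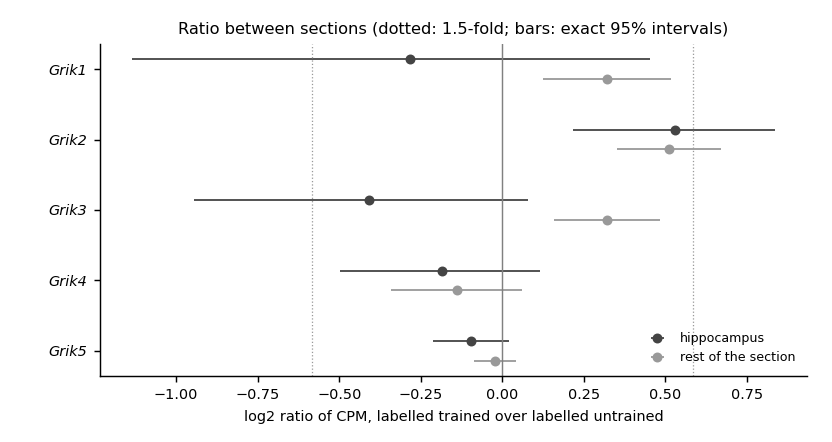
Log2 ratio of CPM, label trained over label untrained (x axis), for each subunit (y axis) in the hippocampus and outside it, with exact 95% intervals for counting error as bars and dotted lines at 1.5-fold. Grik2 sits at 0.53 and 0.51 and Grik5 at -0.10 and -0.02, and no point lies past a dotted line.

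Few members could be set against all genes between sections. In the hippocampus 2 of 5 members, Grik4 and Grik5, had the 400 UMIs over both sections asked of a gene, and 0 were over 1.5-fold higher or lower, beside 8.58% of 5838 genes higher and 4.13% lower. The median log2 ratio of these 2 was -0.14 beside 0.07 over all genes. Grik2, whose intervals did not overlap between sections, fell short of the minimum and was not compared. In the rest of the section all 5 met the minimum and 0 were over 1.5-fold, beside 8.05% of 11092 genes higher and 4.94% lower, with a median of 0.32 beside 0.08. Counts of 0 among 2 and 5 members are near these shares and are no result about the members.

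Genes known to work with kainate receptors were listed, and 13 of 14 were measured here. In the hippocampus 11 of 13 met the minimum of 400 UMIs and 0 were over 1.5-fold in either direction, beside 8.58% of all genes higher and 4.13% lower. Of these 11, 8 were above 0 and 3 below, with a median of 0.06. Neto1, an auxiliary subunit that slows the closing of these channels, was at 0.40 (0.22 to 0.58; 89.2 and 67.5 CPM). Dlg4, the scaffold PSD-95, was at -0.35 (-0.49 to -0.22; 141 and 180.1 CPM). In the rest of the section 2 of 13 were over 1.5-fold higher, Neto1 at 0.72 (0.60 to 0.83) and the adaptor Grip1 at 0.66 (0.40 to 0.91), and 0 were lower. Over all genes there 8.05% were higher and 4.94% lower, and counts this small are not read as a result about the listed genes.

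By layer, Neto1 had 186 and 136 CPM in CA3, 95.2 and 50.9 in DG, and 18.3 and 25.4 in CA1, the same order of layers as Grik4. Neto2, the related auxiliary subunit, had 49.6 and 48.6 CPM in CA3, 39.2 and 40.9 in CA1, and 19.5 and 15.8 in DG. C1ql2 and C1ql3 encode proteins that granule cells release at mossy fibre synapses and that bind kainate receptors. C1ql2 had 277 and 270.4 CPM in DG against 45.1 and 29.2 in CA3, and C1ql3 51.4 and 37.2 against 1.8 and 4.3, so both shared with Grik2 and Grik3 the excess in DG. C1ql2 was also among the leading genes of the DG clusters, although it was not used in the clustering. Adarb1, the enzyme that edits the pore of GluK1 and GluK2 in the RNA, had 117 and 102 CPM in DG, 109 and 105 in CA3 and 53.9 and 50.4 in CA1.

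Of the listed companions 6 of 13 met the minimum of 200 UMIs in CA3 over DG, with 0 over 2-fold higher and 1 lower (C1ql2). In CA3 over CA1 4 met it, with 1 higher (Neto1) and 0 lower, and in CA1 over DG 5 met it, with 0 higher and 2 lower (C1ql2 and Adarb1). These counts stand beside the shares of all genes given for the subunits.

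Kainate receptors were the smallest of the ionotropic glutamate receptor families by UMIs. They made up 15.6% (15.2 to 15.9) and 16.6% (16.3 to 16.9) of the UMIs of kainate, AMPA and NMDA receptor subunits in the whole sections, and 11.3% and 14.4% in the hippocampus. The share was lowest in CA1, 6.4% (5.6 to 7.3) and 9.1% (8.4 to 9.9), and highest of the layers in CA3, 15.8% (14.3 to 17.4) and 18% (17 to 19), with DG at 12.3% and 15.7%. The order CA3, DG, CA1 was the same in both sections. The lower shares under the label trained stood beside a higher AMPA level in that hippocampus, 1326 against 863 CPM, while kainate (253 and 264 CPM) and NMDA subunits (659 and 710 CPM) were slightly lower.

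The study divided hippocampal spots by detected Arc, an immediate early gene of active neurons. Arc was found in 35.7% and 62.0% of hippocampal spots, and after thinning in 8.06% and 7.55%. Egr1 was found in 44.0% and 69.4% of these spots (11.1% and 11.2% after thinning) and Jun in 31.1% and 56.2% (7.17% and 6.18% after thinning). For all 3 genes the raw shares ran opposite to the order given in the paper. For Egr1 and Jun the raw shares were also close to those given there for the animal of the opposite label, while for Arc the section labelled trained was close to the share of the trained animal and the section labelled untrained far above that of either animal. As levels in the hippocampus, Arc had 82.1 and 74.6 CPM, Egr1 163 and 139 CPM and Jun 92.3 and 74.4 CPM, each higher under the label trained. The number of hippocampal spots labelled untrained equalled that given for the untrained animal, but the hippocampus was outlined anew here. The raw shares also followed depth, so no order between the sections was read from them. In CA3, Grik5 had 231 CPM in spots with Arc and 172 CPM in spots without under the label trained (50 and 35 spots), a log2 ratio of 0.42 (-0.00 to 0.87), and 229 and 183 CPM under the label untrained (83 and 35 spots), 0.32 (0.04 to 0.62). Spots with Arc were deeper, with medians of 12291.5 against 7962 and 29886 against 17599 UMIs, and the part of depth or of the place within the layer was not tested. Grik4 in CA3 was at 0.41 (-0.31 to 1.22; 79.6 and 59.1 CPM) and 0.51 (-0.03 to 1.13; 68.0 and 47.2 CPM). Grik5 in DG was at 0.07 and 0.18 and in CA1 at -0.06 and 0.19, with intervals that included 0. When spots were divided by Jun instead, Grik5 in CA3 was at -0.01 and -0.06.

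The genes whose levels over the 19 regions were most like those of each member were ranked among 8412 genes by the lower Pearson r of both sections, on the log2 of CPM plus 1. For Grik5 they included Celf5 (0.90), Erc2 (0.90) and Dbn1 (0.90), and for Grik4 they were Arhgef4 (0.70), Asph (0.69), Gmfb (0.69), Islr2 (0.68) and Neto1 (0.66). For Grik1 they were Aldh1l1 (0.79), Ndrg2 (0.75), Cyp2j9 (0.75), Akap12 (0.74) and Cyp51 (0.73), of which Aldh1l1 and Ndrg2 are known astrocyte genes. For Grik3 they were Prkar2b (0.79), Dnmt1 (0.74), Prkacb (0.72), Ssbp2 (0.66) and Epb41 (0.64), and for Grik2 Dnajc11 (0.69), Scyl3 (0.69), Ptbp2 (0.68), Htt (0.67) and Wdr59 (0.67). The regions share a library within a section, and counts of all members but Grik5 were low, so these are descriptions.

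The deposited tables held Moran's I, a score by the authors for how strongly neighbouring spots share a level. It was 0.0959 and 0.149 for Grik5, 0.0480 and 0.0923 for Grik3, 0.0398 and 0.0598 for Grik4, 0.0240 and 0.0259 for Grik2, and 0.0194 and 0.0450 for Grik1. Grik5 ranked 1598 of 20513 genes listed for the section labelled trained and 1496 of 21498 for the section labelled untrained. The score was not corrected for the number of UMIs, which differed between members and sections.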

How the data were processed

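Spatial gene expression (10x Visium) had been measured on 1 section per group. The authors made the deposited counts, UMIs per gene and spot, with Space Ranger 2.0.0 on the mm10-based 10x reference after bcl2fastq2 and TrimGalore. The deposited tables of spatial enrichment held a score by the authors, Moran's I, and the authors' counts per gene, which equalled the matrix totals for all 20513 and 21498 genes listed. Their p-values and normalised signal were not used, nor were images. No column was left unmapped.

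Members and gene lists were chosen with earlier results of these data known. The named genes were the 5 members, 13 companions found of 14 listed, region markers, and for each member the 5 genes with the most similar regional pattern, of which some are not reported here. Joint clustering of all spots used leidenalg 0.10.2, igraph 0.11.9 and scikit-learn 1.9.0 in Python 3.11.15. In each section the 3000 genes of highest variability were taken, and 1890 genes shared by both were kept after removal of the members, companions, immediate early genes, and mitochondrial, ribosomal and haemoglobin genes. With 30 components, 15 neighbours, resolution 1.5 and seed 7 this gave 31 clusters, from which 23 regions were drawn by hand after the map was seen. Spots under 500 UMIs were left out (194 and 114). Doublet calling does not apply to spots.

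Counts were pooled per region (numpy 2.4.6, scipy 1.17.1, pandas 2.3.3). Levels carry exact Poisson intervals, shares Clopper-Pearson intervals, and log2 ratios exact conditional binomial intervals at 95% with a pseudocount of 0.5 UMI. The methods' rank test over spots was not run, since spots are not replicates. Ratios were checked on simulated data. Alternatives changed the total, weighting, depth, side, clusters, layers, outline, pseudocount, minimum and immediate early gene.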

Additional observations from a re-analysis of the deposited data

How the results depend on the processing

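No paired analysis was possible because each group held 1 section and the labels share only the replicate number 1, so no test was made. Depth limited all members but Grik5: Grik1 and Grik3 had fewer than 100 UMIs in each hippocampal layer, as did Grik4 in all but CA3 labelled untrained. Of the log2 ratios between sections 54 recomputed values moved by less than their interval and 1 by more, of those between layers 200 and 10, of the subunit shares 180 and 10, and of the Arc splits 81 and 9. Right side alone, clusters at resolution 1, layers by highest marker score, a total without mitochondrially encoded genes, an outline widened by 2 steps and a pseudocount of 5 UMIs moved none of their 75, 70, 75, 35, 5 and 5 values by more than their interval. The right side held most hippocampal UMIs, so it is a weak check. The cause of the shifts below was not tested.

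Relative to the rest of the section hippocampal Grik2 went from 0.53 to 0.018. With each spot weighted equally, and with spots thinned to 1000 UMIs, Grik4 in CA3 over CA1 labelled untrained was 1.94 instead of 2.51. Thinning also gave 2.73% for Grik1 (hippocampus labelled trained) and 10.2% for Grik4 (hippocampus labelled untrained). On the left side alone, CA3 over CA1 was 1.21 for Grik2 and 1.36 for Grik3 (from -1.60) under the label trained, and 3.20 for Grik1 and -1.34 for Grik3 under the label untrained. CA1 over DG there was -2.28 for Grik2 and -4.05 for Grik3 under the label trained, and -3.09 for Grik1 and -0.98 for Grik3 under the label untrained. Left CA1 held 0 UMIs of Grik3 under the label trained (1 in CA3) and 0 of Grik1 under the label untrained (7 in CA3), so the ratios of these genes there depend on the pseudocount and are no estimate. The left-side shares labelled trained were 6.98% for Grik2, 0% for Grik3 and 86.0% for Grik5 in CA1, and 21.1%, 10% and 61.1% in DG. Those labelled untrained were 0% for Grik1 in CA1 and 1.30% for Grik3 in CA3.

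Divided by Jun instead of Arc, Grik3 was -2.58 in CA1 and 1.08 in DG and Grik5 -0.0096 in CA3 and 0.76 in DG under the label trained. Under the label untrained the Jun split gave -0.45 for Grik1, 1.65 for Grik3 and -0.063 for Grik5 in CA3, the last from 0.32, and -1.64 for Grik1 in DG. Divided by Egr1, Grik2 in CA3 labelled untrained was 0.85.

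With a minimum of 100 UMIs instead of 400, 1019 genes were higher and 607 lower in the hippocampus (501 and 241 before) and 1045 lower in the rest (548 before). With 50 instead of 200 UMIs, 185 genes were higher and 240 lower in CA3 than in DG, 110 and 127 in CA3 than in CA1, and 203 and 247 in CA1 than in DG, from 71 and 64, 42 and 43, and 72 and 62.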
